A study of Homo sapiens with 8 samples.

Results

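The AP-1 subunit genes studied here were 10 listed genes, taken from the 58302 genes of the count tables by matching the Ensembl identifier to the gene symbol: FOS, FOSB, FOSL1, FOSL2, JUN, JUNB, JUND, ATF3, BATF3 and MAFF. They were measured by RNA sequencing in RD, an established human rhabdomyosarcoma line (a tumour with features of developing skeletal muscle). Control cells carried a scrambled short hairpin RNA and shPROX1 cells a hairpin against PROX1, a homeobox transcription factor, with 4 libraries in each group that the series design describes as biological replicates. All cells grew in the same serum-containing medium. The sequence and number of the PROX1 hairpins, and the time between their introduction and harvest, are not given in the sources used here. The series title presents PROX1 as a regulator of rhabdomyosarcoma growth and stemness, so the comparison asks how each transcript differed once PROX1 was silenced.

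AP-1 is a dimer of basic leucine zipper (bZIP) proteins, which hold each other through a coiled coil and grip DNA with a basic region. JUN proteins pair with one another or with FOS proteins, while FOS proteins need a JUN partner to bind DNA stably. The dimers prefer the sequence TGANTCA, or the longer cyclic AMP response element (CRE) TGACGTCA when ATF proteins take part. Subunits differ in strength: JUN, FOS and FOSB activate strongly, whereas JUNB, JUND, FOSL1 and FOSL2 are weaker or context-dependent activators. In muscle precursors JUN and FOS are known to oppose the activity of MYOD1, the myogenic master regulator.

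Libraries held 3747090 to 4865161 gene counts. Levels are given as CPM, counts scaled to the library total (mean ± SD, n = 4 per group). A log2 change is positive where shPROX1 exceeded control and carries its standard error from the edgeR quasi-likelihood fit. A gene is said to have risen or fallen where its Benjamini-Hochberg adjusted p over all 12392 tested genes was under 0.05. PROX1 itself stood at 20.0, 16.3, 16.7 and 21.6 CPM in the control libraries and at 7.68, 10.3, 9.07 and 8.14 CPM in the shPROX1 libraries. PROX1 fell (log2 change -1.07 ± 0.15, edgeR adjusted p = 4.89e-06). The muscle markers MYOD1 (59.8 to 76.9 CPM), DES, MYOG, MYH3 and CHRNA1 were present in every library. The differentiation factor MYOG fell from 121 ± 5.27 to 47.8 ± 2.69 CPM (log2 change -1.32 ± 0.06, edgeR adjusted p = 1.65e-13), the embryonic myosin gene MYH3 fell by 0.94 ± 0.06 and the desmin gene DES fell by 0.18 ± 0.04 on the log2 scale, while MYOD1 (0.04 ± 0.07) and CHRNA1 (0.01 ± 0.04) did not pass. The part of these marker changes in the AP-1 results was not tested. Of the markers of other cell types, the endothelial gene CDH5 had 0 counts, the epithelial genes EPCAM and CDH1 and the leukocyte gene PTPRC had 2 counts or fewer summed over either group, and the endothelial gene PECAM1 had 9 in control and 8 in shPROX1.

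Some AP-1 genes are known to be bound by AP-1 itself; the JUN promoter, for example, has an element recognised by JUN with ATF2. Windows of 250 bases before and 50 after the RefSeq start (GRCh38.p14) were found for 8 of the 10 genes (10 windows); FOSL1 and BATF3 had no entry. TGANTCA and TGACNTCA, a pattern that covers the CRE, were searched on both strands, and no base of a member window was part of a match to both. TGACNTCA was found in 1 window each of JUN, JUND, ATF3 and MAFF, starting at positions -67, -200, -123 and -54 from the RefSeq start, and was held by 7.72% of all 35116 windows. TGANTCA was found in FOSL2 alone among them, starting 5 bases into the transcript (counted from 1), and was held by 7.71% of all windows. The stretches around these matches are shown 5′ to 3′ on the strand of the gene, with the match in capitals, to compare the elements:
JUN (chr1:58784096-58784124, minus strand): ggccttggggTGACATCAtgggctatttt
JUND (chr19:18281804-18281832, minus strand): gccgcccccaTGACGTCAacccacaaggc
ATF3 (chr1:212565274-212565302, plus strand): acctatgataTGACATCAtatggccactc
MAFF (chr22:38201930-38201958, plus strand): gccgggtcggTGACGTCAccgcatgactg
FOSL2 (chr2:28392851-28392879, plus strand): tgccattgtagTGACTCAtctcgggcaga

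JUND and JUNB, the members that fell, are shown with the whole 250 bases before their RefSeq starts. The JUND window lies directly before the start of the gene in GENCODE 29. The JUNB window ends shortly before that start, within an intron of HOOK2, a gene on the opposite strand. Capitals mark the TGACNTCA match, of which JUNB has none. Both windows held CCAAT on either strand, as did 34.6% of all windows. So did 1 window each of JUN and MAFF, which rose, and of ATF3, which did not pass. JUND held 6 copies of GGGCGG over its whole 300-base window with the transcribed part included, and JUNB held 0. At least 1 copy was found in 45.0% of all windows, and also in windows of JUN, MAFF, FOSL2, FOS, FOSB and ATF3. How many of all windows hold 6 copies was not counted. No member window held a CArG box, the site of serum response factor, against 1.29% of all windows. Because the windows reach only 250 bases before the start, sites further upstream were not searched, and the genes may hold a CArG box there. These matches describe the letters of the windows and were not tested as binding sites.
JUND (chr19:18281623-18281872, minus strand): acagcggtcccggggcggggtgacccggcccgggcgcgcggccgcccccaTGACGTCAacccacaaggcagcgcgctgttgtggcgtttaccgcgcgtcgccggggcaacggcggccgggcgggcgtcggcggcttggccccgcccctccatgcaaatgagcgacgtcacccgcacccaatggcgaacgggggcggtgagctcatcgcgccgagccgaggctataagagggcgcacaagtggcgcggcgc
JUNB (chr19:12791236-12791485, plus strand): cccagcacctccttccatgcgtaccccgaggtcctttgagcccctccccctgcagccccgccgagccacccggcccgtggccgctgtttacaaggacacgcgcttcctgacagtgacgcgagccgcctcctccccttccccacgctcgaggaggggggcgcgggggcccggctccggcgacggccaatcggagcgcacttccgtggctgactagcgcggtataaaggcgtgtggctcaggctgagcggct

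The subunit genes moved in opposite directions after PROX1 silencing: JUN, FOSL1, FOSL2 and MAFF rose, and JUND and JUNB fell. Of the 10 genes, 9 passed the filter on low counts, and 6 of these 9 passed the test, 4 higher and 2 lower in shPROX1. Over all tested genes 35.2% passed the test, 17.3% higher and 17.9% lower. The 6 called members also had groups of libraries that did not overlap in CPM, as did 32.3% of all tested genes. The median absolute log2 change was 0.73 over the 9 tested members and 0.18 over all tested genes, and the signed medians were 0.48 and -0.01. The members were chosen with earlier results of these data known, so these counts and medians are a description and not a test of enrichment. In bulk RNA, a change in the number of cells that express a gene and a change in RNA per cell cannot be told apart.

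**Figure D1:**
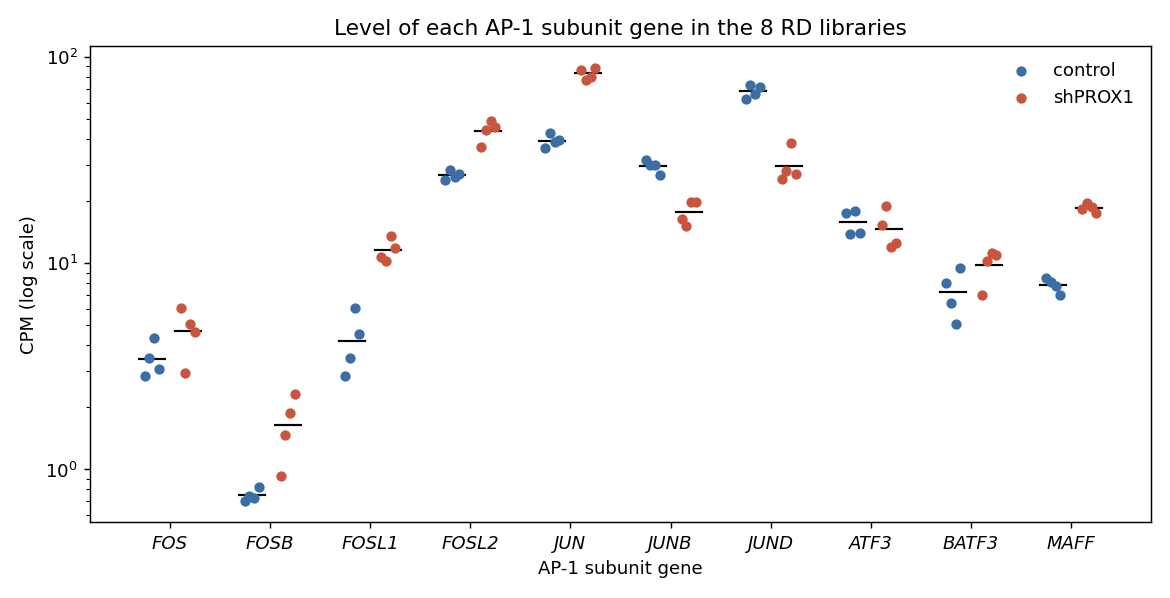
Level of the 10 AP-1 subunit genes in CPM on a log axis, 1 point per library and a black line at each group mean. JUN, FOSL1, FOSL2 and MAFF points of the shPROX1 libraries lie above all control points, JUNB and JUND points lie below them, and FOS, ATF3 and BATF3 points overlap. FOSB points of the shPROX1 libraries also lie above all control points, but FOSB was below the filter on low counts.

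JUN, the founding AP-1 activator and a substrate of the JNK kinases, lies on the minus strand of chromosome 1 (58780788 to 58784327, GRCh38) as a gene of 1 exon. Its level was 36.0, 42.7, 38.7 and 39.5 CPM in control and 86.1, 77.3, 80.3 and 88.8 CPM in shPROX1. The lowest shPROX1 library was thus well above the highest control library. JUN rose 2.16-fold, from 39.2 ± 2.73 to 83.1 ± 5.25 CPM (log2 change 1.11 ± 0.07, edgeR adjusted p = 3.43e-11). In absolute size its change exceeded that of 97.8% of tested genes.

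JUND, a JUN protein known for high levels in resting cells, moved the other way. This gene of 1 exon lies on the minus strand of chromosome 19 (18279760 to 18281622). JUND stood at 62.4, 73.0, 66.0 and 71.3 CPM in control and at 25.6, 27.9, 38.2 and 27.0 CPM in shPROX1. The groups were far apart, with shPROX1 replicate 3 the highest of its group. JUND fell 2.28-fold, from 68.2 ± 4.86 to 29.7 ± 5.75 CPM (log2 change -1.19 ± 0.10, edgeR adjusted p = 1.15e-09), a change larger in absolute size than that of 98.3% of tested genes. In shPROX1 JUND was the JUN gene with the widest spread between libraries (coefficient of variation 19.4%, against 6.31% for JUN and 13.3% for JUNB).

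JUNB, which weakens the activity of JUN when the pair forms a dimer, fell as well. The gene lies on the plus strand of chromosome 19 (12791496 to 12793315) and has 1 exon. Its level was 31.8, 30.1, 30.0 and 26.7 CPM in control and 16.3, 15.2, 19.7 and 19.8 CPM in shPROX1, so that every shPROX1 library was below every control library. JUNB fell 1.64-fold (29.6 ± 2.12 to 17.7 ± 2.37 CPM, log2 change -0.71 ± 0.11, edgeR adjusted p = 2.77e-05). An exon of HOOK2 on the opposite strand covers 259 bases of JUNB, 14.2% of its exon bases. HOOK2 fell too (-0.70 ± 0.13, edgeR adjusted p = 2.32e-04), and because the strand setting of the counting is not given in the sources used here, reads of this stretch may be shared; their part in the result was not tested.

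Compared per length of exon, the leading JUN gene changed from JUND to JUN. In CPM per kilobase of exon, the control order was JUND (36.6 ± 2.61), JUNB (16.3 ± 1.17) and JUN (11.1 ± 0.770), with no overlap between neighbours. The shPROX1 order was JUN (23.5 ± 1.48), JUND (15.9 ± 3.09) and JUNB (9.75 ± 1.30), again with no overlap. JUN made up 16.6% to 17.8% of the summed JUN-family level in the control libraries and 42.0% to 51.7% in the shPROX1 libraries. JUND made up 54.8% to 59.7% in control and 28.7% to 37.9% in shPROX1, and JUNB 22.9% to 28.6% and 18.5% to 21.5%. The ratio of JUN to JUND per kilobase was 0.304, 0.308, 0.308 and 0.291 in control and 1.77, 1.46, 1.11 and 1.73 in shPROX1. JUND was therefore the more abundant of the pair in each control library and JUN in each shPROX1 library. The summed JUN-family level was 64.0 ± 2.80 CPM per kilobase in control and 49.2 ± 3.91 in shPROX1. Shares and sums are descriptions without a test, since the genes were chosen with their changes known.

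**Figure D2:**
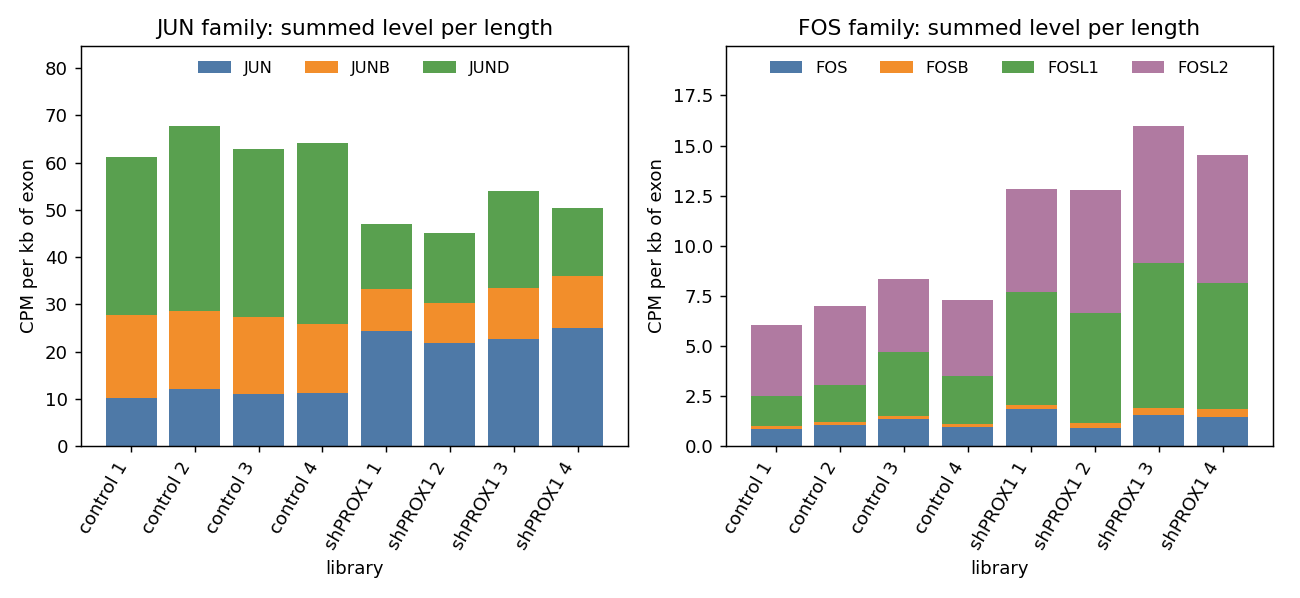
Stacked bars of CPM per kilobase of exon for the JUN family (left) and the FOS family (right) in each of the 8 libraries; each colour is a gene and the bar height is the family sum. In the JUN family the JUN segment is larger than the JUND segment in every shPROX1 library and smaller in every control library, and in the FOS family the sum is higher in every shPROX1 library than in any control library.

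Among FOS genes, the weaker activators FOSL1 and FOSL2 rose. FOSL1, which encodes FRA1 and is known from invasive and mesenchymal tumour cells, lies on the minus strand of chromosome 11 (65892049 to 65900573). The control libraries held 12, 14, 25 and 22 FOSL1 counts and the shPROX1 libraries 46, 42, 51 and 51. In CPM these are 2.83, 3.45, 6.05 and 4.52 against 10.7, 10.3, 13.6 and 11.9, with no overlap. FOSL1 rose 2.78-fold (log2 change 1.47 ± 0.20, edgeR adjusted p = 5.20e-06), which was the largest absolute change among the 9 tested members; its 95% interval ran from 1.06 to 1.90. The counts are small, and the control libraries varied by 33.5% (coefficient of variation).

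FOSL2 encodes FRA2, the close relative of FRA1, and lies on the plus strand of chromosome 2 (28392448 to 28417312). Its level was 25.2, 28.4, 26.1 and 27.1 CPM in control and 36.5, 44.0, 49.1 and 45.6 CPM in shPROX1. The groups did not overlap, with shPROX1 replicate 1 nearest to control. FOSL2 rose 1.66-fold (26.7 ± 1.36 to 43.8 ± 5.29 CPM, log2 change 0.73 ± 0.09, edgeR adjusted p = 2.01e-06).

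FOS, the classic serum-induced immediate early gene, lies on the plus strand of chromosome 14 (75278774 to 75282230) and was scarce. Control libraries held 12, 14, 18 and 15 FOS counts and shPROX1 libraries 26, 12, 19 and 20, which are 2.83 to 4.35 and 2.94 to 6.05 CPM. The groups overlapped, since shPROX1 replicate 2 lay within the control range. The log2 change of 0.48 ± 0.26 did not pass the test (edgeR adjusted p = 0.157), with a 95% interval of -0.05 to 1.02 that leaves both no change and a 2-fold rise possible at this depth. Of all tested genes, 92.0% had a higher CPM than FOS.

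FOSB, a strong activator like FOS, lies on the plus strand of chromosome 19 (45467995 to 45475179) and was below the filter on low counts. Its counts were 3, 3, 3 and 4 in control and 4, 6, 7 and 10 in shPROX1, or 0.749 ± 0.0509 and 1.65 ± 0.592 CPM. The control libraries were thus near 3 counts, the limit that a count of 0 allows (0.617 to 0.801 CPM by library, counting error only). The groups did not overlap in CPM (0.707 to 0.822 in control, 0.931 to 2.32 in shPROX1), although control replicate 4 and shPROX1 replicate 1 both held 4 counts. Fitted without the filter, FOSB had a log2 change of 1.13 ± 0.52 that did not pass (edgeR adjusted p = 0.136).

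Per kilobase, FOSL2 (3.73 ± 0.189) was above FOSL1 (2.23 ± 0.747), FOS (1.06 ± 0.206) and FOSB (0.135 ± 0.00917) in control. FOSL1 and FOS did not overlap in control, with 1.50 to 3.20 against 0.873 to 1.34 CPM per kilobase. Divided by the length of the transcript with the longest coding sequence in place of all exon bases, they did overlap (1.69 to 3.62 against 1.31 to 2.02). In shPROX1, FOSL1 (6.15 ± 0.789) and FOSL2 (6.12 ± 0.739) did not differ beyond their spread, and both were above FOS (1.44 ± 0.402) and FOSB (0.297 ± 0.107). FOSL1 took 24.9% to 38.5% of the summed FOS-family level in control and 42.6% to 45.1% in shPROX1. The share of FOSL2 was 43.8% to 58.5% and 39.8% to 48.2%, which overlapped, as did that of FOS (13.1% to 16.1% and 7.10% to 14.6%). The FOS-family sum was 7.16 ± 0.951 CPM per kilobase in control and 14.0 ± 1.53 in shPROX1, below the JUN-family sum in all 8 libraries.

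MAFF encodes a small MAF protein, which has no activation domain of its own and pairs with other bZIP proteins. It lies on the plus strand of chromosome 22 (38200767 to 38216511). MAFF stood at 8.48, 8.14, 7.74 and 6.99 CPM in control and at 18.4, 19.6, 18.7 and 17.4 CPM in shPROX1. Both groups were tight, and no library of one group came near the other. MAFF rose 2.40-fold (7.84 ± 0.641 to 18.5 ± 0.883 CPM, log2 change 1.27 ± 0.14, edgeR adjusted p = 1.41e-07). Its gene span overlaps that of PLA2G6 on the opposite strand without shared exon bases, and PLA2G6 fell (-0.63 ± 0.20, edgeR adjusted p = 0.0183).

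ATF3, a stress-induced repressor or activator according to its partner, lies on the plus strand of chromosome 1 (212565334 to 212620777). Its level was 17.4, 13.8, 17.9 and 14.0 CPM in control and 15.4, 18.8, 12.0 and 12.6 CPM in shPROX1, with shPROX1 replicate 2 the highest and replicates 3 and 4 the lowest of all 8 libraries. The log2 change of -0.07 ± 0.15 did not pass (edgeR adjusted p = 0.750, 95% interval -0.39 to 0.24). BATF3, which pairs with JUN proteins and is known from dendritic cells, begins 65641 bases beyond the end of ATF3 on the opposite strand (212686418 to 212699985). BATF3 stood at 8.01, 6.41, 5.08 and 9.45 CPM in control and 6.98, 10.3, 11.2 and 10.9 CPM in shPROX1. The groups overlapped through shPROX1 replicate 1. Its log2 change of 0.44 ± 0.20 did not pass after adjustment (edgeR adjusted p = 0.0875), although the unadjusted 95% interval was 0.03 to 0.86. BATF3 passed without control replicate 4 (edgeR adjusted p = 0.0328) or without shPROX1 replicate 1 (edgeR adjusted p = 0.0307). PROX1 lies 1.28 Mb beyond BATF3 on the same chromosome.

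Per kilobase of exon, ATF3 (3.91 ± 0.541 CPM) came next after the JUN genes in control, followed by FOSL2, BATF3 (2.67 ± 0.701), FOSL1, MAFF (1.40 ± 0.114), FOS and FOSB. In that order ATF3 and FOSL2 overlapped in their ranges, as did BATF3 with FOSL1, FOSL1 with MAFF and MAFF with FOS. In shPROX1 the JUN genes were followed by FOSL1 and FOSL2, then by ATF3 (3.64 ± 0.775), BATF3 (3.63 ± 0.719) and MAFF (3.30 ± 0.157), whose ranges overlapped, and FOS and FOSB were lowest. The middle of this order turned with the length used. Divided by the length of the transcript with the longest coding sequence, an alternative added after seeing the data, the shPROX1 means were 10.0 for BATF3, 7.44 for MAFF, 7.23 for ATF3, 6.96 for FOSL1 and 6.53 for FOSL2, and BATF3 came above JUNB (9.75) with overlapping ranges. In control that length gave 7.76 for ATF3, 7.39 for BATF3, 3.98 for FOSL2, 3.15 for MAFF and 2.52 for FOSL1. With either length JUND, JUNB and JUN led in control, JUN and JUND led in shPROX1, and FOS and FOSB were lowest in both groups. No order between FOSL1, FOSL2, ATF3, BATF3 and MAFF in shPROX1 is therefore drawn.

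**Figure D3:**
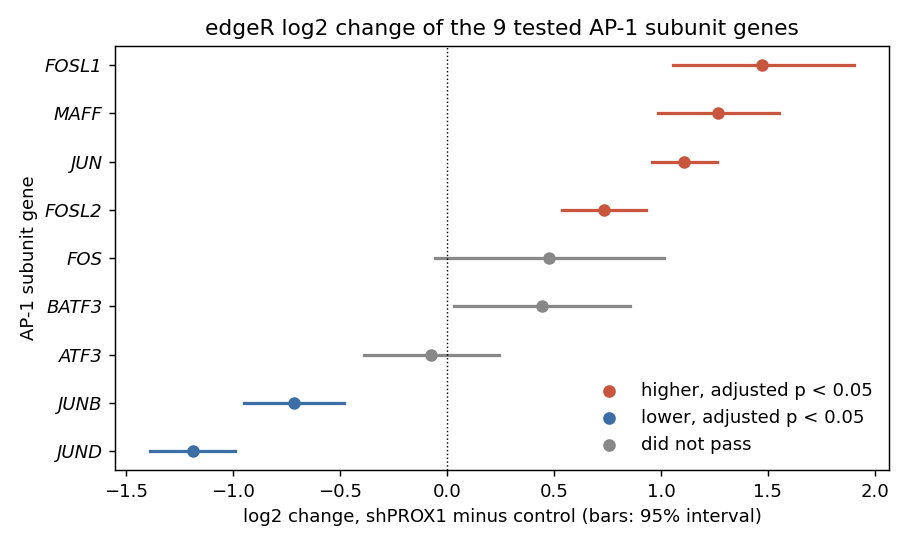
Log2 change (shPROX1 minus control, edgeR) of the 9 tested AP-1 subunit genes, points with 95% intervals, coloured by the test. FOSL1, MAFF, JUN and FOSL2 lie to the right of 0 and JUNB and JUND to the left, while FOS, BATF3 and ATF3 did not pass.

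The nearest tested gene on each side of each member was taken, a rule added after the members' changes were seen. Of these 20 neighbours 1 rose, 5 fell and 14 did not pass, so that 30.0% were called, against 35.2% of all tested genes. ATF3 and BATF3 are each other's neighbour and are among the 14. JUN, FOSL1 and FOSL2 each had 2 neighbours that did not pass. The neighbours of JUN were MYSM1 (-0.02 ± 0.07) and LINC01358 (0.50 ± 0.31). JUND had 1 neighbour that fell by less, the splicing-related gene LSM4 (-0.28 ± 0.05), and 1 that did not pass, MPV17L2 (-0.05 ± 0.14). JUNB was flanked by HOOK2 and by the peroxiredoxin gene PRDX2, which fell (-0.47 ± 0.07). The gene span of FOSB overlaps that of ERCC1 on the opposite strand without shared exon bases. ERCC1 rose (0.45 ± 0.08), and RTN2 on the other side of FOSB fell (-0.88 ± 0.13).

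Immediate early transcripts are known for short lives set by AU-rich elements. The pentamer ATTTA was counted in the annotated 3′ UTR of the transcript with the longest coding sequence of each member (GENCODE 29). All 10 genes held at least 1 copy, as did 71.1% of 10993 tested coding genes. FOS had 5 copies in 806 bases, a density above that of 94.3% of these genes, and JUNB 2 copies in 500 bases, above 83.2%. The median density over these genes was 1.69 copies per kilobase. Among the members that rose, it was 2.45 in MAFF, 2.33 in JUN, 1.85 in FOSL2 and 1.50 in FOSL1, and among those that fell, 4.0 in JUNB and 1.47 in JUND. These densities are a description, and transcript stability was not measured.

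The libraries in which a gene was high or low were also compared with all other protein-coding genes of at least 10 CPM, by Pearson's r of log2(CPM + 0.5) over the 8 libraries. The genes most like FOSL1 were RAB31 (r = 0.988), PIEZO1 (r = 0.987) and ABL2 (r = 0.986), and those most like JUND were IGF2 (r = 0.998), EIF2AK1 (r = 0.997) and GPC1 (r = 0.991). Since the libraries form 2 separate groups, these values mostly reflect the difference between groups, and 121 genes had r above 0.95 with FOSL1 and 241 with JUND. They are given as a description of n = 8 libraries.

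Of 32 other listed bZIP genes, 26 were tested, 6 rose, 3 fell and 17 did not pass. Whether each of them pairs with AP-1 subunits was not tested. The called share was 34.6%, against 35.2% of all tested genes, and the median absolute log2 change was 0.20 against 0.18 (signed median 0.02). The small MAF genes MAFK (0.44 ± 0.10) and MAFG (0.33 ± 0.07) rose with MAFF. BACH1, a repressor that pairs with small MAF proteins, rose from 255 ± 12.1 to 312 ± 9.31 CPM (0.31 ± 0.05), and CREB3L2, a membrane-bound factor of the endoplasmic reticulum, rose by 0.42 ± 0.11. The 3 genes that fell were CREB1 (-0.30 ± 0.07), CEBPG (-0.26 ± 0.07) and ATF6 (-0.16 ± 0.06). The stress factor ATF4 was abundant and did not pass (-0.09 ± 0.05, edgeR adjusted p = 0.176). The FOS neighbour JDP2, a repressor that pairs with JUN, had 6 to 17 counts per library and did not pass (-0.51 ± 0.29).

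Kinases and factors upstream of AP-1 went both ways. Of 25 listed genes, 24 were tested, 9 rose, 6 fell and 9 did not pass. The called share was 62.5%, against 35.2% of all tested genes, and the median absolute log2 change was 0.32 against 0.18 (signed median -0.03). This list too was chosen with earlier results of these data known, so its share is a description. MAP3K5, the kinase ASK1 that feeds JNK and p38, rose from 10.1 ± 2.03 to 21.2 ± 2.65 CPM (log2 change 1.11 ± 0.15). ELK3, an ETS partner of serum response factor, rose from 39.8 ± 2.02 to 82.5 ± 10.2 CPM (1.07 ± 0.08), and SRF itself rose (0.57 ± 0.08). MAP2K6, an activator of p38, fell (-0.84 ± 0.23), and ELK4 did not pass (-0.03 ± 0.09). MAPK8, the JNK1 kinase that phosphorylates JUN, fell (-0.35 ± 0.07); it was named after its value was seen.

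Of 15 listed genes of AP-1 turnover and repression, 14 were tested, 3 rose, 0 fell and 11 did not pass in the edgeR test. The called share was 21.4%, against 35.2% of all tested genes, and the median log2 change was 0.06. At an unadjusted p under 0.05 the falls were 0 as well, and DESeq2 called 2 rises and 0 falls. Among the rises were the AU-rich element binding proteins HNRNPD (0.28 ± 0.09, edgeR adjusted p = 0.0150) and KHSRP (0.16 ± 0.06, edgeR adjusted p = 0.0425). Both were highest in shPROX1 replicate 3 (105 and 226 CPM). Of the 14 tested genes 0 had groups of libraries that did not overlap in CPM, against 32.3% of all tested genes.

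Among textbook AP-1 target genes more rose than fell. Of 40 listed genes, 28 were tested, 18 rose, 1 fell and 9 did not pass. The share that rose was 64.3%, against 17.3% of all tested genes, and the share that fell was 3.57%, against 17.9%. The median log2 change was 0.60, against -0.01 over all tested genes. PLAU, the urokinase protease, rose from 347 ± 18.7 to 1138 ± 29.1 CPM (log2 change 1.74 ± 0.04), its receptor PLAUR rose (2.12 ± 0.08), and so did the receptor kinase AXL (1.88 ± 0.07). CXCL8, a chemokine, was the 1 gene that fell (-0.56 ± 0.17), and PHLDA1 did not pass (-0.09 ± 0.05). The 12 untested genes included MMP1, MMP3, MMP9, MMP10 and MMP13, each with 2 counts or fewer in every library. The list was written with earlier results of these data known, and many of its genes have other regulators, so its count is a description.

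**Figure D4:**
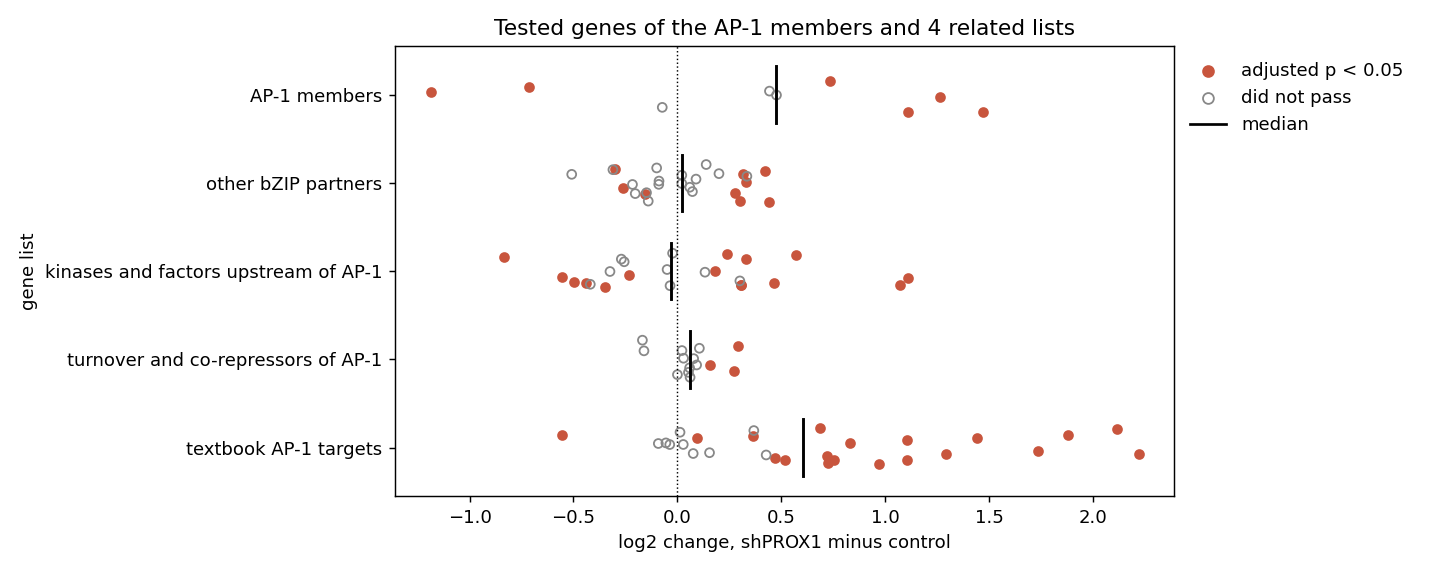
Log2 change (shPROX1 minus control, edgeR) of each tested gene in the AP-1 members and 4 related lists, filled where the adjusted p was under 0.05, with a black line at each list's median. The medians are 0.02 for other bZIP genes (labelled partners), -0.03 for upstream genes, 0.06 for turnover genes and 0.60 for target genes, and AP-1 members lie on both sides of 0.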

How the data were processed

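RNA from 8 RD libraries (4 control, 4 shPROX1) was made into libraries with a strand-preserving kit, per the labels' protocols. The files that the authors deposited hold raw counts for 58302 genes each; FastQC, HISAT2, HTSeq, DESeq2 and the build GRCh38 (hg38) are named in the submitters' processing notes, without versions or strand setting. Identifiers were matched to GENCODE 29 (58039 of 58302); promoter sequences are RefSeq's (GRCh38.p14). Totals were 3747090 to 4865161 counts per library. None of the 12 within-group pairs of libraries agreed within sampling noise (chi-square per degree of freedom 1.19 to 6.49, over genes with at least 25 summed counts). Control pairs ran from 2.44 to 6.49 and shPROX1 pairs from 1.19 to 2.19, so control libraries differed more from one another. The fit shared the spread over both groups.

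Counts were tested with edgeR 4.0.16 (R 4.3.3; TMM factors, filterByExpr, quasi-likelihood test without covariates) and p-values were adjusted by Benjamini-Hochberg over 12392 genes. The fit was tested on simulated data with known changes. It called 0.132% of unchanged genes, and 66.7%, 88.8% and 100% of genes changed by 0.5, 1 and 2 on the log2 scale. In that simulation 12080 of 12279 genes were unchanged, whereas 35.2% of tested genes were called in these data. It therefore did not test the fit where so many genes change. Alternatives were other scaling factors and filters, DESeq2 1.42.0, limma 3.58.1 voom, a replicate block, each library left out and a threshold of 0.01; transcript length for composition and levels per kilobase was added after seeing the data. Members and lists were chosen with earlier results of these data known. Named genes were PROX1, all members, and per list up to 4 called genes of at least 1 CPM with the largest change plus the most abundant uncalled gene; for FOSL1 and JUND, the 3 most similar genes. Values of some genes that this rule names are not reported here. Genes outside this rule are the neighbours, JDP2, CREB1, CEBPG, ATF6, CXCL8, MAPK8 and the scarce metalloproteases.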

Additional observations from a re-analysis of the deposited data

How the results depend on the processing

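All 6 member calls were kept, in the same direction, under each of the other scaling factors, filters, tools, thresholds, the replicate block and each left-out library, and no alternative called another member except BATF3 in the fits without control replicate 4 and without shPROX1 replicate 1 given above. ATF3 stayed uncalled, between -0.21 and 0.01. JUN ranged from 1.08 to 1.15, JUND from -1.32 to -1.12 and FOSL1 from 1.33 to 1.68 on the log2 scale. The replicate block called 6 members and 4187 genes, against 4364 genes without it; same-numbered libraries did not deviate together (r from -0.07 to 0.06), so the numbers were not treated as pairs. Without division by length, the JUN share rose by 35.2 percentage points in place of 30.7, and that of FOSL1 by 6.93 in place of 13.2. The FOSB share difference of 0.188 percentage points was -0.0770 without shPROX1 replicate 4, with a range of -0.0770 to 0.449 over left-out libraries. FOS and FOSB had 3 to 26 counts per library, and whether more depth would change their calls was not tested. None of 36 groups of 4 values held a library that stood apart.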
